A study of Sus scrofa with 9 samples.

Results

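Pig (Sus scrofa) oocytes that had been heated in the presence of L-Asp were compared here with oocytes that were never heated, by sequencing of polyadenylated RNA. All had reached metaphase II (MII), where a mature egg arrests until fertilisation. They were wild type and were matured in vitro with their cumulus cells for 44 to 48 h. Controls were cultured at 38.5 °C throughout. The heated oocytes spent 24 h at 41.5 °C from the germinal vesicle stage and then returned to 38.5 °C, and L-Asp (by its usual meaning the amino acid L-aspartic acid) was present during the heat. Concentrations of 0.5, 1.0 and 1.5 mmol/L are listed and the one sequenced is not named. A group that was heated without L-Asp is quoted for orientation. Each group comprised 3 libraries out of 9, and 25 oocytes are stated per group, with no account of how they were divided or of whether libraries came from separate animals or cultures. The p-values given here therefore measure only the spread between libraries, which may be technical. Genes were followed when their mean level reached 10 CPM (the count of a gene relative to the depth of its library, with libraries put on 1 scale by the trimmed mean of M values, TMM) in control or in heat plus L-Asp. That left 6685 of 15012 genes tested and of 23507 in the table. CNTN5, at 10.0 CPM in control, and CALM3, at 10.0 CPM with L-Asp, lay just inside this limit, and TMEM219 and TTLL3, at 9.999 and 9.997 CPM with L-Asp, just outside.

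A fully grown oocyte is transcriptionally silent, so its maturation runs on messenger RNA stored during growth. Messages are stored with short poly(A) tails, are lengthened when they are needed for translation, and are shortened and degraded afterwards. Many messages of the zona pellucida and of housekeeping functions are removed during maturation, whereas regulators of meiosis such as MOS are recruited to the ribosome at that time. The libraries were primed with oligo(dT), so tail length and RNA amount cannot be told apart in these data. Nor can fewer cells of a type be told apart from less RNA per cell.

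The libraries were sequenced to 41693395 to 58361475 counts, with 41693395 to 49008681 in the L-Asp group. The 3 control libraries were nearly the same library in effect: among genes of at least 10 CPM in control, the highest control value exceeded the lowest by a factor of 1.07 for the median gene and of 1.25 at the 95th percentile. The index of dispersion between control pairs (the squared difference relative to independent single counts) was 5.2 to 5.23. Between L-Asp libraries it was 79.4 to 86.2. The control was therefore averaged and counted as 1 sample, whose own spread is unknown, and its values are printed without an SD. Because reads carry no molecular identifiers, limits of detection cover counting error only. All 13 defining oocyte markers that were found had counts in every library. Coordinates are those of the deposited table, their genome build being not given in the sources used here.

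No gene differed between heat plus L-Asp and control by edgeR's quasi-likelihood test (0 of 15012, or 0%; p-values adjusted by Benjamini-Hochberg), and the smallest adjusted p was 0.18. Unadjusted p-values under 0.05 numbered 484 (3.22%), of which 244 (1.63%) belonged to genes higher and 240 (1.6%) to genes lower with L-Asp, and 751 are due by chance alone. With DESeq2 and again 7 libraries there were 64 calls (0.386% of 16574 genes with an adjusted p), 43 of them for higher genes. When the control libraries were entered as 3 replicates, edgeR called 269 genes (1.79%). Since no gene passed, the following account is one of size and of the spread among the L-Asp libraries, and it makes no claim that any single gene differed.

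Most of the transcriptome lay close to control. Among 6036 genes of at least 10 CPM in both groups, 5079 (84.1%) had a mean within 1.5-fold of control. Measured as the median absolute log2 ratio over 6382 genes, L-Asp libraries 1, 2 and 3 lay 0.27, 0.34 and 0.38 from control. They lay 0.30 to 0.36 from one another. The L-Asp libraries were thus about as far from one another as from control. Heat-only libraries lay 0.42, 0.35 and 0.33 from control, a range that overlapped that of the L-Asp libraries. They lay 0.37 to 0.44 from one another, farther apart than the L-Asp libraries.

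A gene was called 2-fold apart when each of the 3 L-Asp libraries lay at least 2-fold above, or at least 2-fold below, the averaged control. This is a rule of size and not a test. It took 75 genes (1.12% of 6685) on the higher side and 50 (0.748%) on the lower side, and 138 and 30 when scaled by library totals alone. Judged on 2 L-Asp libraries it took 164 and 125 genes without library 1, 102 and 80 without library 2, and 107 and 99 without library 3. With 10 CPM required in both groups it took 35 (0.58%) and 23 (0.381%), so 40 of the higher genes were under 10 CPM in control and 27 of the lower genes under 10 CPM with L-Asp. Over all 15012 genes the shares were 2.04% and 2.7%. A weaker criterion, all 3 L-Asp libraries beyond every control library, was met upward by 19.4% and downward by 24.4% of the genes of at least 10 CPM, and by 14.2% and 19.6% of all genes tested. Since the control libraries hardly differ, these shares serve as the background for the gene lists below, whose 2-fold counts cover only members of at least 10 CPM. Of the 125 genes that were 2-fold apart, 36 overlap another gene of the table, and reads of overlapping genes cannot be separated without strand.

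**Figure D1:**
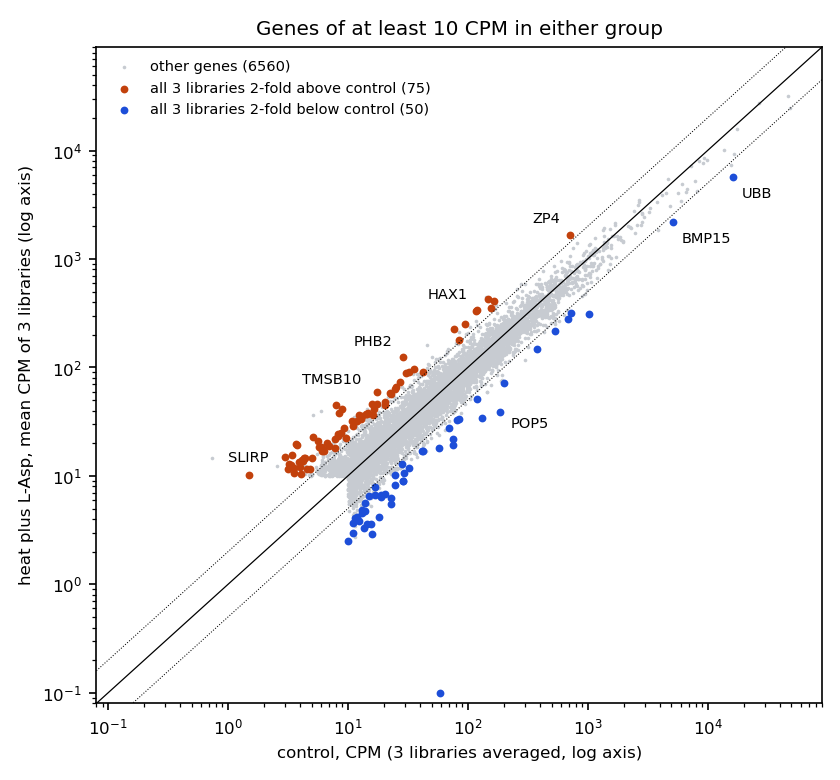
Mean CPM of the 3 heat plus L-Asp libraries (vertical, log axis) against the averaged control (horizontal, log axis) for 6685 genes, with the line of equality and dotted lines at 2-fold. The 75 higher genes (orange) lie mostly at low control levels and the 50 lower genes (blue) reach up to UBB at 16331 CPM in control. Values under 0.1 CPM are drawn at 0.1, which applies to 1 gene without counts after L-Asp.

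Where genes stood relative to control went with their level in control. That level is also the reference of the comparison, so genes that read high in control by error would tend to lie lower with L-Asp. The classes therefore cannot tell abundance apart from this dependence, and its part in the shares was not tested. In the class of 10 to 30 CPM in control, 19.9% of 2234 genes had all 3 L-Asp libraries below every control library. The share was 24.4% at 30 to 100 CPM, 30.1% at 100 to 300 CPM, 41.3% at 300 to 1000 CPM and 48.7% of the 117 genes at 1000 CPM or more. Upward the share was 17.3% in the lowest class and 9.4% in the highest. The median log2 ratio of L-Asp to control was -0.01 in the lowest class and -0.22 in the highest. Scaling by library totals alone moves the median over all tested genes from 0.01 to 0.18 on the log2 scale. These class medians were then 0.16 and -0.05, and those of the classes between were 0.13, 0.11 and 0.04. The order was thus the same, but the sign turned from below to above 0 in every class under 1000 CPM.

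Of the 39 gene lists, the cytosolic ribosome, the machine that reads messenger RNA, had the highest fitted median; with markers absent from control set at the detection limit, as given below, the cumulus and granulosa list lay higher. Of 65 tested ribosomal protein genes 61 lay above control by fold change and 53 had all 3 L-Asp libraries above every control library. Of the 51 at 10 CPM or more in either group 14 were 2-fold higher, against 1.12% of all 6685 genes. Several of the 14, such as RPL10, RPS12, RPS9, RPL6 and RPS18, reached 10 CPM only with L-Asp, where they are high. The 2-fold count is thus favoured by the limit itself. The only member with all 3 libraries below was RPS15, at 19.7 CPM in control and 18.0, 11.9 and 9.76 CPM with L-Asp. The median log2 fold change of the list was 0.90, against 0.01 over all genes tested, and it was 0.75, 1.01 and 1.00 in the 3 libraries. After heat alone the median was 1.21. Without any one of the L-Asp libraries the median was 0.89 to 1.01, and it was 1.07 when scaled by library totals. By edgeR 0 members passed after adjustment over all genes, and 26 had an unadjusted p under 0.05, all of them higher.

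RPL11, which also restrains the p53 regulator MDM2, measured 35.9 CPM in control and 93.4, 108 and 91.2 CPM with L-Asp. RPL27 measured 32.6 CPM in control and 86.4, 101 and 84.7 CPM. Both were narrow among the L-Asp libraries, with means of 97.6 ± 9.30 and 90.5 ± 8.72 CPM (SD, n = 3), and no L-Asp value came near the control. At low levels RPL10 measured 3.76 CPM in control and 24.8, 18.3 and 15.2 CPM with L-Asp, and RPS12 2.97 and 14.2, 22.3 and 8.79 CPM. Among the more abundant members RPS20 stood at 95.6 CPM in control and 252 ± 30.6 CPM with L-Asp, and RPL7A at 84.1 and 179.6 ± 6.10 CPM. Ribosomal protein genes have many processed pseudogenes, which can take or lend reads, so single values are uncertain.

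Markers of the somatic cells around the oocyte (cumulus and granulosa) also lay mostly above control. Of 21 tested markers, 15 lay above control by fold change and 6 below. All 3 L-Asp libraries lay above every control library for 10 markers and below for 2. The fitted median log2 fold change was 0.69, and after heat alone the fitted median was 2.07. Both take in the markers without a count in control. A second median set the 3 markers that had no count in control at the detection limit (12 counts, or 0.234 CPM). It left out 2 markers at or under that limit in both groups, and was 1.18 with L-Asp. This second median was not computed for heat alone. The summed level of the list was 1194 CPM in control and 1262, 1210 and 1218 CPM with L-Asp, and was 1267 to 1605 CPM after heat alone. That sum is carried by RGS2, VCAN and GATA4, which oocyte libraries of the control group also held at 942, 133 and 85.2 CPM.

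Several markers of these cells were at or near 0 in control. The examples with changed values given next all lay higher with L-Asp and do not stand for the whole list. Of its 21 tested markers 6 lay below control, with fitted log2 fold changes down to -5.96. GATA6, LGALS1 and INHBA had no count there and 0.931 ± 0.173, 0.811 ± 0.104 and 0.695 ± 0.269 CPM with L-Asp (SD, n = 3). CYP11A1, which starts steroid synthesis, measured 0.039 CPM in control and 1.32, 7.80 and 0.687 CPM with L-Asp, so library 2 stood apart. INHA, an inhibin subunit of the same cells, measured 0.02 CPM in control and 0.73, 6.41 and 0.426 CPM. The gap junction gene GJA1 measured 0.80 CPM in control and 5.03, 1.60 and 7.03 CPM with L-Asp, where library 2 was lowest. PTX3 had no count in any library, and LHCGR none outside 1 L-Asp library at 0.0947 CPM. Theca and stroma markers lay above control in 2 of 7 tested genes, endothelial markers in 1 of 3, and blood and immune markers in 2 of 4 with a summed level of at most 3.74 CPM with L-Asp. The part of cumulus cell RNA in the ribosomal protein values, and in those of any gene below, was not tested.

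**Figure D2:**
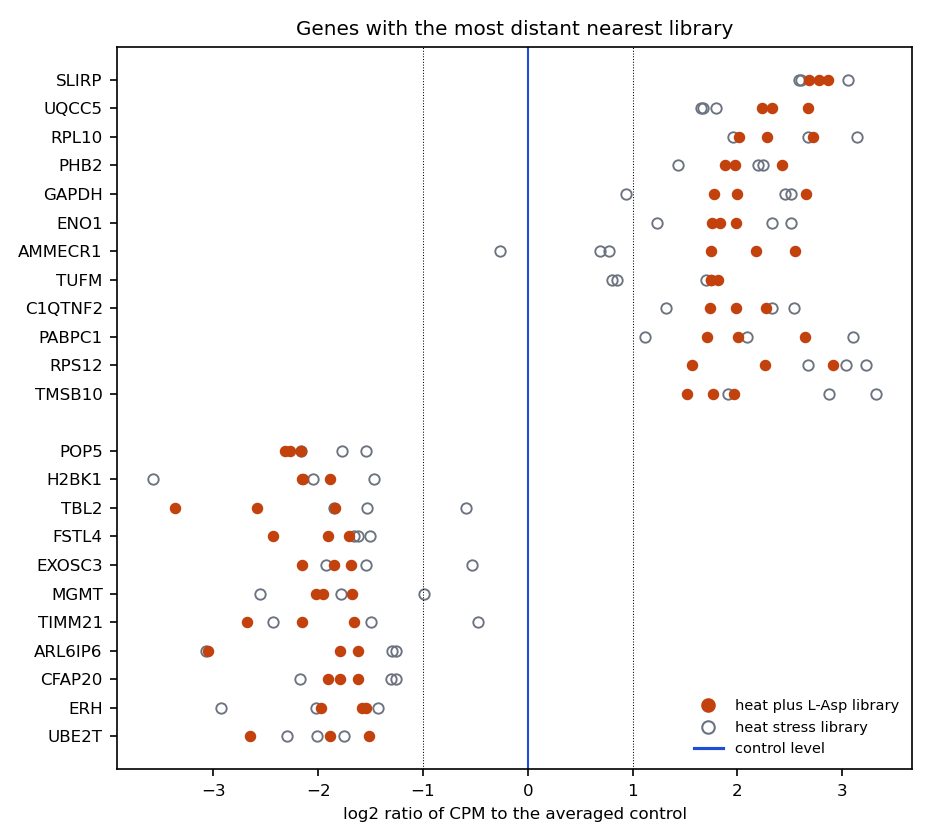
Log2 ratio of CPM to the averaged control (horizontal) for 12 higher and 11 lower named genes whose nearest heat plus L-Asp library lay farthest from control, with dotted lines at 2-fold. Filled points are the 3 L-Asp libraries and open circles the 3 heat-only libraries. All filled points lie beyond 2-fold by construction, while the heat-only values of AMMECR1 lie within 2-fold of control.

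Genes that process RNA stood on both sides. POP5, a protein subunit of the ribonucleases P and MRP, which trim transfer RNA and ribosomal RNA precursors, had the smallest p of all genes (ENSSSCG00000009912, chromosome 14, 40522719 to 40525866). It measured 184 to 188 CPM in the control libraries and 37.4, 38.6 and 41.6 CPM with L-Asp. After heat alone it stood at 41.5 to 64.0 CPM. The L-Asp libraries were tight and 4.75-fold lower on average, with a log2 fold change of -2.25 ± 0.30 (SE) and an adjusted p of 0.18 by edgeR. Over all alternatives its log2 fold change lay between -2.29 and -2.07 and its adjusted p (edgeR or DESeq2) between 2.27e-06 and 1. RPP21, another subunit of ribonuclease P, lay the other way, at 117 CPM in control and 287, 328 and 388 CPM with L-Asp. EXOSC3, a core subunit of the RNA exosome, measured 11 CPM in control and 3.41, 3.05 and 2.46 CPM with L-Asp, and overlaps another gene.

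Both poly(A)-binding proteins on the higher side had all L-Asp values well above control. PABPC1, the cytoplasmic form, measured 5.11 CPM in control and 20.6, 16.7 and 31.9 CPM with L-Asp. PABPN1, the nuclear form, measured 165 CPM in control and 364, 382 and 471 CPM. Translation factors as a list showed no such shift, with 24 of 42 above control, 0 members 2-fold apart and a median log2 fold change of 0.07. At 10 CPM or more, its members of smallest unadjusted p by edgeR were EIF3D and the helicase EIF4A2. EIF3D stood at 14.8 CPM in control and 31.8 ± 3.93 CPM with L-Asp, and EIF4A2 at 278 and 173 ± 14.9 CPM (SD, n = 3). In the splicing list 16 of 55 genes had all 3 libraries above control and 9 below. LSM7 measured 282 CPM in control and 502 ± 19.0 CPM with L-Asp.

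Mitochondrial proteins made in the nucleus formed the next group. PHB2, a prohibitin of the inner membrane that also serves as a mitophagy receptor, measured 28.9 CPM in control and 114, 155 and 107 CPM with L-Asp (ENSSSCG00000024655, chromosome 5, 63751558 to 63756478). It overlaps another gene, and edgeR gave a log2 fold change of 2.11 ± 0.43 (SE) and an adjusted p of 0.797. After heat alone PHB2 measured 77.9 to 137 CPM. HAX1, an antiapoptotic mitochondrial protein, measured 119.8 CPM in control and 279, 345 and 399 CPM with L-Asp. The lowest L-Asp library of each gene was more than 2-fold above the highest control library. The protease LONP1 measured 6.26 CPM in control and 17.2 ± 1.79 CPM with L-Asp, and TUFM, the mitochondrial elongation factor, 4.31 and 14.7 ± 0.382 CPM (SD, n = 3).

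SLIRP, which stabilises mitochondrial messenger RNA, lay farthest above control among the 75 genes by its nearest L-Asp library. It measured 1.50 CPM in control and 10.9, 9.66 and 10.3 CPM with L-Asp, 6.86-fold higher on average, and it too overlaps another gene. On the lower side were 2 proteins of mitochondrial transport. PRELID3A, which carries phospholipid between the mitochondrial membranes, measured 202 CPM in control and 53.5, 72.1 and 91.6 CPM with L-Asp. TIMM21, a subunit of the inner-membrane translocase, measured 18.2 CPM in control and 5.76, 2.83 and 4.07 CPM. Over the list of mitochondrial dynamics and integrity, 12 of 37 genes had all 3 libraries above control and 7 below (median log2 fold change 0.21).

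Nuclear genes of the respiratory chain lay above control more often than below. For complex I, 26 of 33 were above by fold change, 14 had all 3 libraries above control and 5 below, and the median log2 fold change was 0.48. Without L-Asp library 2 that median was 0.22, so this library carried much of it. For complexes II to V, 26 of 36 were above, 17 had all 3 libraries above and 7 below, and the median was 0.40. COX6B1, a subunit of complex IV, stood at 25.3 CPM in control and 60.4, 76.0 and 62.1 CPM with L-Asp. NDUFA11, of complex I, measured 16.1 CPM in control and 36.9, 40.4 and 33.1 CPM.

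The subunits of succinate dehydrogenase (complex II) did not lie together. The membrane anchors were low, SDHD with 42.1 CPM in control and 14.8, 21.0 and 15 CPM with L-Asp, and SDHC with 61.3 and 35.0, 29.0 and 41.1 CPM. The iron-sulfur subunit SDHB was slightly high, at 516 CPM in control and 605, 687 and 596 CPM. Within each of these genes, no L-Asp library overlapped the control. In the glycolysis list 7 of 22 genes had all 3 libraries above control and 2 below. GAPDH measured 8.41 CPM in control and 28.8, 52.8 and 33.6 CPM with L-Asp, and ENO1 3.18 and 12.6, 10.7 and 11.4 CPM. The germ-cell lactate dehydrogenase LDHC lay below, at 83.8 CPM in control and 41.1, 33.0 and 26.0 CPM. GAPDH has many pseudogenes that can share its reads.

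The 13 genes encoded in mitochondrial DNA, the core subunits of the same complexes, lay mostly under control. By fold change 11 were below, 7 had all 3 libraries below every control library and 0 above. Their median log2 fold change was -0.48. The libraries differed in this: the median was -1.01 in library 1 and -0.23 and -0.22 in libraries 2 and 3. Without library 1 the list median was -0.20. The mitochondrial genome took 10.0% to 10.1% of counts in control and 5.30%, 9.47% and 9.29% in L-Asp libraries 1, 2 and 3. After heat alone it took 3.09%, 5.18% and 14.5%, so that library 3 of that group lay above control. COX1 measured 47035 CPM in control and 22098, 37499.7 and 35243 CPM with L-Asp. ATP8, the shortest of these genes, had the lowest fold change, with 433 CPM in control and 136, 278 and 221 CPM. ND3 and ND4L lay above control in libraries 2 and 3 and below it in library 1.

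**Figure D3:**
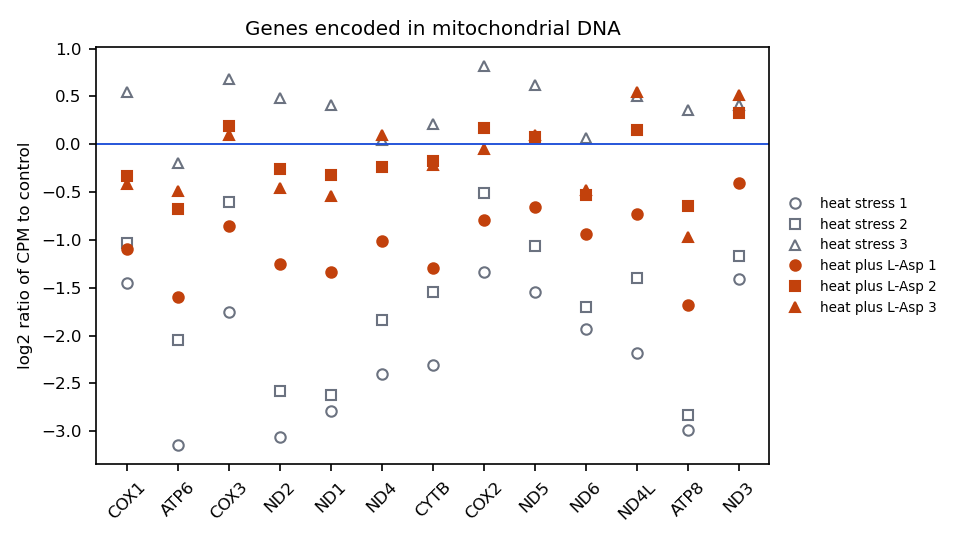
Log2 ratio of CPM to control (vertical) for the 13 genes encoded in mitochondrial DNA, in each heat-only library (open symbols) and each heat plus L-Asp library (filled symbols), with the control at 0. L-Asp library 1 (filled circles) lies below control in all 13 genes and is the lowest of the L-Asp libraries in each.

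UBB, which encodes chains of ubiquitin that are cut into the free protein, was low in all L-Asp libraries (chromosome 12, 59171289 to 59172841, ENSSSCG00000018033). It stood at 16331 CPM in control and 6547, 5151 and 5472 CPM with L-Asp, so every L-Asp value lay 2.49-fold or more below control. For UBB edgeR gave an adjusted p of 0.579 and a log2 fold change of -1.51 ± 0.25 (SE). After heat alone UBB stood at 4265 to 5233 CPM. The gene consists of near-identical repeats and can share reads with other ubiquitin genes. RPS27A, which makes ubiquitin fused to a ribosomal protein, lay the other way, at 30.7 CPM in control and 51.9, 56.9 and 51.9 CPM with L-Asp.

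Enzymes that pass ubiquitin on were mixed. UBE2T, a conjugating enzyme of the Fanconi anaemia pathway, measured 130.3 CPM in control and 35.1, 20.7 and 45.7 CPM with L-Asp. UBE2C and UBE2S, the enzymes that work with the anaphase-promoting complex, measured 531 and 174 CPM in control. With L-Asp, UBE2C stood at 183, 309.5 and 266 CPM and UBE2S at 60.8, 136 and 118 CPM, all below control, with library 1 lowest for both. UBE2E1 lay above, at 58.3 CPM in control and 123 ± 20.3 CPM with L-Asp (SD, n = 3). Of the 33 genes of this list, 8 had all 3 libraries above control, 11 below and 3 were 2-fold lower. In the proteasome list the counts were 7 and 12 of 43. Its catalytic subunit PSMB7 measured 24.8 CPM in control and 63.2, 59.3 and 66.5 CPM with L-Asp, while PSMD8 of the regulatory particle measured 538 and 288 ± 33.1 CPM.

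Genes of the oocyte itself separated into those below and those above control. BMP15, a growth factor secreted by the oocyte to its cumulus cells (ENSSSCG00000012310, chromosome X, 44613122 to 44620575), measured 5174 CPM in control and 2326, 1621 and 2575 CPM with L-Asp. After heat alone BMP15 measured 1394 to 2435 CPM. GDF9, its partner, measured 227 CPM in control and 155, 176 and 126 CPM. BTG4, the adaptor that brings the deadenylase to maternal messages, measured 15798 CPM in control and 9649, 7078 and 5426 CPM with L-Asp. DNMT1, the maintenance DNA methyltransferase, measured 48811 CPM in control and 30521, 16034 and 28034 CPM. ID3, an inhibitor of helix-loop-helix factors, measured 8183 CPM in control and 3552, 4119.6 and 4920.4 CPM. For each of these 5 genes the whole L-Asp group lay under the control libraries, with log2 fold changes from -1.25 ± 0.34 (BMP15) to -0.57 ± 0.28 (GDF9, SE). Per transcript length, DNMT1 lay at 7039 to 7082 FPKM in control, as deposited by the authors, and at 4852, 2534 and 4377 FPKM with L-Asp.

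The zona pellucida genes, which encode the coat of the egg, lay level or above. ZP4 (ENSSSCG00000010141, chromosome 14, 53577135 to 53584546) measured 706 CPM in control and 1581, 1412 and 1967 CPM with L-Asp. ZP3 measured 142 CPM in control and 276, 348 and 714 CPM, with library 3 far above the others. ZP2 was level, at 919 CPM in control and 924, 904 and 1051 CPM with L-Asp. OOEP, of the subcortical maternal complex, measured 519 CPM in control and 722, 947 and 898 CPM. NLRP5 of the same complex lay below, at 15.9 CPM in control and 7.78, 8.04 and 11.9 CPM.

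Meiotic kinases and their partners lay below control or straddled it in the examples given here. MOS, which drives the arrest at MII through the MAP kinase pathway, measured 1537 CPM in control and 686, 924 and 1113 CPM with L-Asp. WEE2, the oocyte kinase that inhibits CDK1, straddled control, at 1745 CPM there and 1274, 1567 and 2039 CPM with L-Asp. After heat alone WEE2 stood at 832 to 1059 CPM. CKS1B measured 7930.1 CPM in control and 5186 ± 403 CPM with L-Asp (SD, n = 3). Of 31 genes of the oocyte and zona list, 6 had all 3 libraries above control and 11 below, and of 33 genes of meiotic control, 5 and 8. Their medians were -0.12 and -0.10 on the log2 scale and turned positive, to 0.06 and 0.07, when scaled by library totals.

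**Figure D4:**
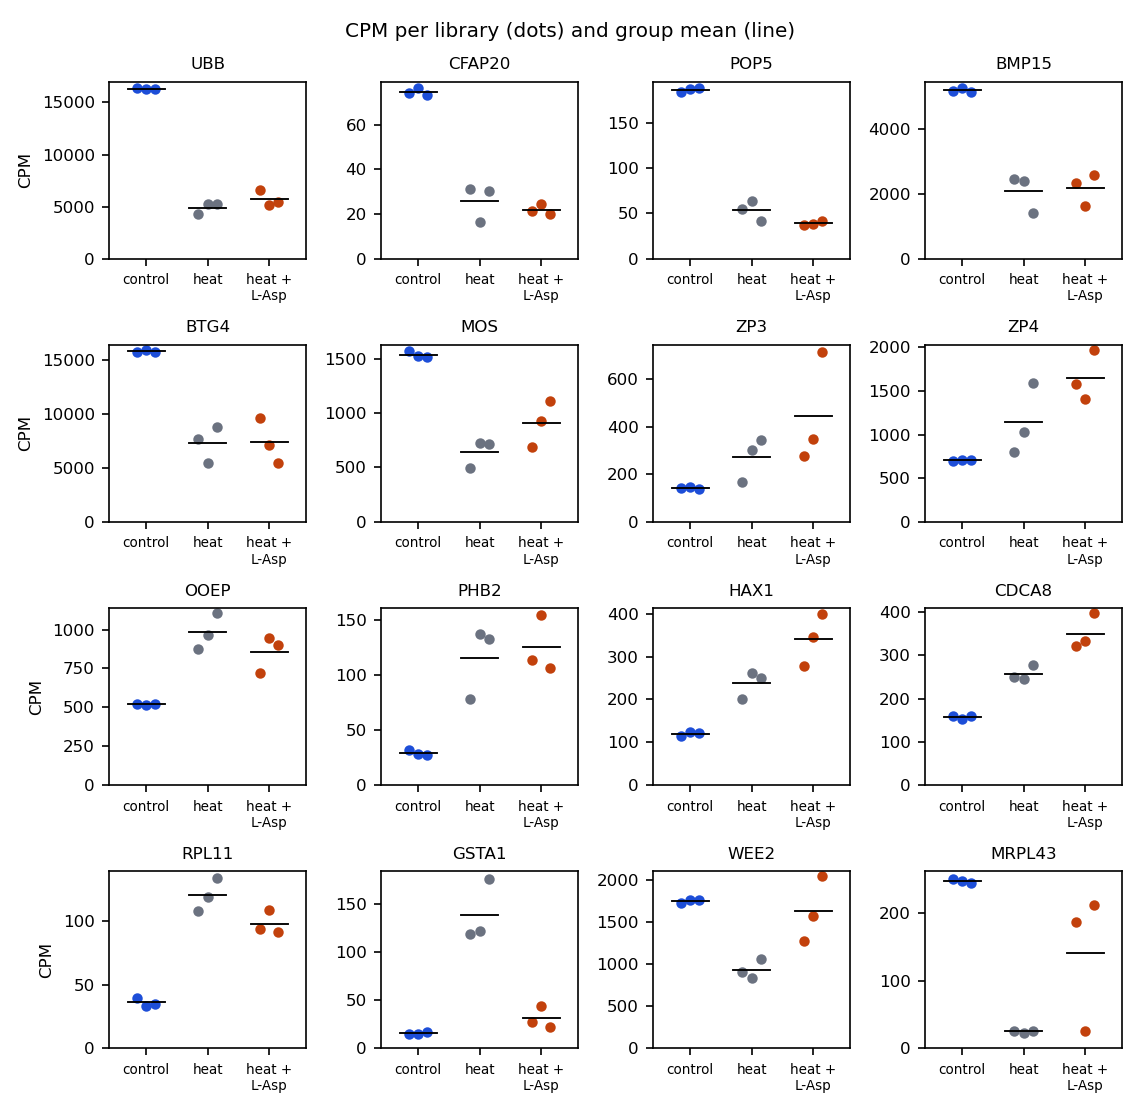
CPM of 16 genes in each of the 9 libraries (dots; 3 control, 3 heat-only and 3 heat plus L-Asp libraries) with group means (lines), each panel on its own linear axis from 0. UBB, CFAP20, POP5 and BMP15 lie below control in every L-Asp library, ZP4, PHB2, HAX1, CDCA8 and RPL11 above it, WEE2 straddles it, and library 2 stands apart for MRPL43.

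Genes of chromosome segregation lay on both sides of control. CDCA8, the borealin subunit of the chromosomal passenger complex, measured 157 CPM in control and 321, 333 and 397 CPM with L-Asp. BIRC5, the survivin subunit, measured 20.5 CPM in control and 36.6, 33.5 and 45.6 CPM. In the outer kinetochore SPC24 measured 12.5 CPM in control and 29.1, 44.8 and 34.8 CPM, whereas SPC25, its direct partner, measured 64.0 and 50.9, 42.4 and 35.3 CPM. ZWINT measured 11.5 CPM in control and 4.07, 4.10 and 4.0 CPM with L-Asp, and MAD2L1, the checkpoint protein, 510.0 and 368, 317 and 229 CPM. Over the checkpoint, cohesin and anaphase-promoting complex list, 4 of 50 genes had all 3 libraries above control and 16 below (median log2 fold change -0.20). STMN1, which destabilises microtubules, measured 155 CPM in control and 55.5, 87.0 and 64.8 CPM.

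Lists of stress responses lay near control. Of 47 heat shock and chaperone genes 0 were 2-fold apart, 7 had all 3 L-Asp libraries above control and 11 below, and the median log2 fold change was 0.00. The list does not cover HSPA1A, HSPA1B, HSPA2, HSP90AA1, HSPB11 and BAG5, which were not found by symbol. HSPA8, the constitutive HSP70, measured 168 CPM in control and 297, 212 and 232 CPM with L-Asp, against 290.3 to 417 CPM after heat alone. HSPH1 measured 181 CPM in control, 237, 178 and 149 CPM with L-Asp and 212 to 379 CPM after heat alone. STIP1, the HSP70 to HSP90 adaptor, lay below control, at 24.8 CPM there and 12.7, 17.8 and 12.2 CPM with L-Asp. The antioxidant list had 7 of 38 genes above and 10 below in all 3 libraries, with 0 genes 2-fold apart. It does not cover GSTP1, GSTT1, HMOX1, TXN and TXNRD2, which were not found by symbol.

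GSTA1, a glutathione transferase, measured 15.8 CPM in control and 27.7, 43.6 and 22.6 CPM with L-Asp, between control and the 119 to 176 CPM of heat alone. It belongs to a family of similar genes that can share reads. BCL2L13, a mitophagy receptor of the BCL2 family, measured 144 CPM in control, 41.8, 58.5 and 77.9 CPM with L-Asp and 15.8 to 48.3 CPM after heat alone. In the unfolded protein and ATF4 list, CHAC1 stood at 11.7 CPM in control and 20.1, 29.5 and 39.5 CPM with L-Asp.

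Genes that make, use or carry aspartate showed no shared shift. Of 29 tested, 6 had all 3 libraries above control, 6 below and 0 were 2-fold apart, with a median log2 fold change of 0.06. ASNS, which makes asparagine from aspartate, measured 141 CPM in control and 215, 273 and 269.9 CPM with L-Asp, and 243 to 306 CPM after heat alone. ASRGL1, which releases aspartate from asparagine, measured 8.62 CPM in control and 3.67, 3.03 and 3.34 CPM with L-Asp. It lay under the limit of 10 CPM in both groups. PPAT, the entry enzyme of purine synthesis, measured 59.8 CPM in control and 27.8, 35.6 and 26.8 CPM. For these 3 genes every L-Asp library lay on 1 side of all control libraries. None passed by edgeR (adjusted p of 1 for each).

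**Figure D5:**
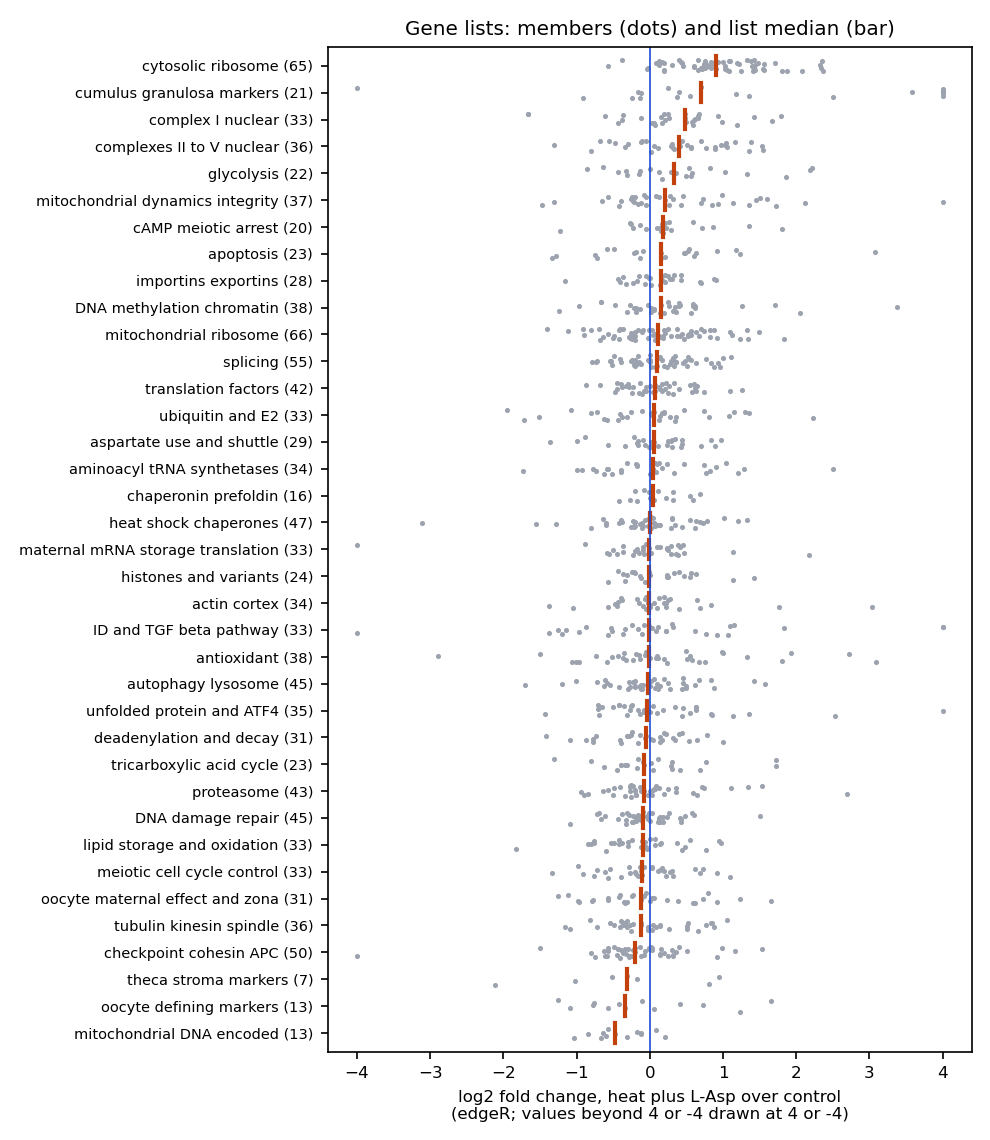
Fitted log2 fold change of heat plus L-Asp over control (horizontal) for the tested members of 37 gene lists (dots) with list medians (bars) and the number of tested members in parentheses. Values beyond 4 or -4 are drawn at 4 or -4. The cytosolic ribosome has the highest fitted median of the lists drawn (0.90) and the genes of mitochondrial DNA the lowest (-0.48), while most medians lie near 0.

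The remaining genes farthest from control had varied roles. FSTL4, a secreted follistatin-like protein, measured 75.8 CPM in control and 20.2, 14 and 23.3 CPM with L-Asp. After heat alone FSTL4 measured 24.0 to 26.6 CPM. MGMT, which removes alkyl groups from guanine in DNA, measured 22.8 CPM in control and 5.62, 7.09 and 5.87 CPM, and overlaps another gene. Both lay clear of control in every L-Asp library, and so did the histone gene H2BK1, at 22.9 CPM in control and 5.13, 5.17 and 6.18 CPM, whose reads can be shared with other histone genes. CFAP20, a protein of the cilium, stood at 74.7 CPM in control and 22 ± 2.23 CPM with L-Asp, and ERH, a small conserved nuclear protein, at 28.8 and 8.93 ± 1.40 CPM (SD, n = 3). On the higher side TMSB10, a thymosin that binds actin monomers, measured 17.4 CPM in control and 59.1, 68.1 and 49.8 CPM with L-Asp, and 65.5 to 174 CPM after heat alone. UQCC5, an assembly factor of complex III, measured 3.71 CPM in control and 17.4, 18.6 and 23.7 CPM.

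Several further lists lay near control as groups. Of 45 DNA repair genes, 1 had all 3 L-Asp libraries above control and 8 below, and the recombination gene XRCC2 measured 173 CPM in control and 95.1, 131 and 99.5 CPM with L-Asp. Of 38 genes of DNA methylation and chromatin, 7 lay above and 4 below in this sense, and DNMT3B, a de novo methyltransferase, measured 132 CPM in control and 188, 189 and 229.7 CPM. Among 45 autophagy and lysosome genes the numbers were 11 and 5, with WIPI2, of the forming autophagosome, at 106 CPM in control and 175, 176 and 217 CPM with L-Asp. Among 31 genes of deadenylation and decay they were 3 and 9, and PAN3, of a deadenylase complex, stood at 188 CPM in control and 294 ± 5.44 CPM with L-Asp (SD, n = 3). Among 33 lipid genes they were 2 and 8, and the lipid droplet protein PLIN2 stood at 460.1 CPM in control and 310.2, 327 and 395 CPM. In the list of importins and exportins 4 of 28 genes lay above and 4 below. RANBP1, a cofactor of nuclear transport, measured 47.2 CPM in control and 76.0, 99.5 and 89.3 CPM, and XPO6, the exporter of actin, 55.4 and 21.4, 19.8 and 33.4 CPM.

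Genes that lay farthest from control after heat alone were also read in the L-Asp libraries, with the control shared by both comparisons. They were chosen for heat-only values far from control, so the choice itself favours L-Asp values nearer control. MRPL43, a mitochondrial ribosomal protein, measured 248 CPM in control and 22.9 to 26.3 CPM after heat alone. With L-Asp it stood at 187, 25.7 and 212 CPM, so libraries 1 and 3 lay near control and library 2 at the level of heat alone. MRPL43 overlaps another gene. ALG9, a mannosyltransferase, measured 2.18 CPM in control, 10.0 to 14.3 CPM after heat alone and 1.62, 5.01 and 1.78 CPM with L-Asp, again with library 2 apart. TRPV3, a warmth-gated channel, measured 12.4 CPM in control, 1.40 to 4.32 CPM after heat alone and 6.28, 8.04 and 10.5 CPM with L-Asp. It overlaps another gene as well.

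Other genes of that set stood on the same side of control in both heated groups. ERBB4, a receptor tyrosine kinase, measured 20.5 CPM in control, 4.67 to 6.6 CPM after heat alone and 5.35, 7.88 and 7.06 CPM with L-Asp, so the heated groups overlapped. CD24 measured 0.761 CPM in control, 7.01 to 23.2 CPM after heat alone and 6.2, 5.98 and 8.38 CPM with L-Asp. GNG11 measured 2.24 CPM in control and lay lower with L-Asp, at 9.91, 10.9 and 6.04 CPM, than after heat alone at 16.5 to 33.3 CPM. In the other direction, AMMECR1 and the E3 ligase NEURL3 were within 2-fold of control after heat alone and farther above it with L-Asp. Both belong to the genes 2-fold above control with L-Asp, so here the choice favours high L-Asp values. AMMECR1 measured 3.39 CPM in control, 2.82 to 5.82 CPM after heat alone and 15.4, 11.4 and 19.9 CPM with L-Asp. NEURL3 measured 6.91, 7.96 to 9.96 and 17.8, 19.1 and 19.2 CPM in that order. By edgeR none of these genes passed in the comparison with control.

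Genes that were 2-fold apart had shorter transcripts than the rest. The apparent length (count over the deposited FPKM) had a median of 4846 nt over the 6685 genes, 2448 nt among the 75 higher genes and 2911 nt among the 50 lower genes. Without ribosomal protein genes the higher set had a median of 2655 nt. Genes were divided by length into 5 classes of 1337. In the shortest class 41 were 2-fold higher and 22 lower, against 1 and 4 in the longest. The median log2 fold change of the classes was between -0.06 and 0.01. The part of transcript length in these counts was not tested.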

How the data were processed

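Counts and FPKM values per gene were deposited in 1 table for the whole series. The counts were whole numbers per the file headers and values, and were used as deposited. The FPKM values, made by the authors, served for transcript length and for levels per length. Per the submitters' processing notes the tools were StringTie 2.1.6, HISAT2 2.2.1, cutadapt 1.9, edgeR and DESeq2, whose roles are not stated. Per the labels' protocols the cDNA was oligo(dT)-primed, amplified by PCR and unstranded. A further 6 columns of per-sample values were not used. The deposited table gave 13893 genes a symbol, a gene name table another 116, and 9498 had none.

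Control counts were averaged and rounded as 1 library. With 3 heat-only and 3 L-Asp libraries this gave 7, with 4 residual degrees of freedom, and the control was assumed to vary like the others. Genes passing filterByExpr (computed on 9 libraries) were scaled by TMM and tested by edgeR 4.0.16 (R 4.3.3, limma 3.58.1; glmQLFit with robust dispersion, glmQLFTest, adjusted p under 0.05). DESeq2 1.42.0 was an alternative. The procedure was tested on simulated data. A gene without counts was bounded by 12 counts (3 fragments of 4 counts, as control counts pile up at 4). A distance used log2 of CPM plus 1.

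Named genes were, among those with a symbol and 10 CPM, up to 12 per direction past the 2-fold rule ranked by the nearest L-Asp library, genes called by edgeR, up to 4 such members of each of 39 gene lists (else the 2 of smallest p, as values), the 10 of highest control CPM, and the 10 per direction farthest after heat alone. One gene that the rule names is not reported here. Other list members and 2-fold genes were named after their values were seen. The comparison, the lists and the rule were chosen with earlier results of these data known, so counts over lists describe and do not test.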

Additional observations from a re-analysis of the deposited data

How the results depend on the processing

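The number of genes called by edgeR was 0 with size factors of DESeq2 (RLE), library totals, a filter on 7 libraries or a mean count of 50 as well. It was 3 without a filter on low counts (all lower, POP5 and UBB among them) and 1 in a fit of control and L-Asp only (4 libraries). Leaving out 1 library gave 0 to 1. The single gene was ENSSSCG00000047655 in the 4 libraries and without heat-only library 1, and ENSSSCG00000055543 without L-Asp library 1. DESeq2 called 64 and edgeR on 9 libraries 269 genes (174 higher, 95 lower), and 47 genes were shared. With a replicate block on 9 libraries it was 223 (144 higher, 79 lower). The replicate numbers were not taken as pairs in the main fit. Same-numbered control and L-Asp libraries deviated from their group means with correlations of -0.03 to -0.02. These cannot decide whether samples were paired, because the control libraries hardly differ. For same-numbered heat-only and L-Asp libraries the correlations were 0.45, -0.16 and 0.12, and for differently numbered ones -0.35 to 0.27. The higher and lower 2-fold counts of 75 and 50 were 138 and 30 with library totals, 121 and 82 at 5 CPM, 46 and 30 at 20 CPM, 306 and 406 without a minimum, 264 and 239 at 1.5-fold, and 35 and 23 with 10 CPM in both groups, a setting added after seeing the data. With RLE they were 86 and 44. Without 1 library they ranged from 75 to 164 and from 47 to 125, highest without L-Asp library 1. Without L-Asp library 2 they were 102 and 80, and without library 3 they were 107 and 99. Of the log2 fold changes of named genes under alternatives, 654 had the same direction and call, 52 newly passed the threshold and 8 turned sign. All 52 passed where the nearly identical control libraries were entered as 3 replicates. These numbers leave out DESeq2 on 7 libraries, where the control was 1 sample. DESeq2 called 24 of the 75 higher and 10 of the 50 lower 2-fold genes, POP5, UQCC5, SLIRP, UBB, PHB2 and HAX1 among them. The sign turned with library totals for MYH11 (0.0024), ACCSL (0.015), COX3 (0.055) and PCNA (0.084). It turned without 1 L-Asp library for COX3 (0.15) and TEK (-0.25, both library 1), ALG9 (-0.35, library 2) and ADCY6 (-0.40, library 3). Leaving out 1 L-Asp library at a time, the ranges were -0.29 to 0.15 for COX3, -0.25 to 0.27 for TEK, -0.35 to 0.64 for ALG9 and -0.40 to 1.28 for ADCY6. Of the 39 list medians, 16 turned sign under another scaling, all from below 0. The cause of these differences was not tested. The unknown spread of the control limits every comparison.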

Other observations

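Long noncoding RNAs and genes without a symbol were counted in the same way. Of 198 long noncoding RNAs of at least 10 CPM, 0 were 2-fold higher and 4 were 2-fold lower with L-Asp, with a median log2 fold change of 0.06. Of 672 genes without a symbol, 10 were 2-fold higher and 7 lower.

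A few genes were present or absent by library. One gene of the 6685 had no count in any L-Asp library, the long noncoding RNA ENSSSCG00000047655 (chromosome 16, 28597714 to 28631547), chosen after its values were seen. It measured 59.2 CPM in control, at least 231-fold above the detection limit of the L-Asp libraries (3 fragments, mean of 3 libraries). Heat-only library 1 held 97.1 CPM of it and heat-only libraries 2 and 3 none. It overlaps another gene of the table. A further 5 genes had no count in 1 or more L-Asp libraries and 10 CPM or more in another, against 2 genes in control and 7 after heat alone. Among them ENSSSCG00000055543 (chromosome 2, 11484798 to 11492784) measured 22.7 CPM in control, 36 CPM in L-Asp library 1 and 0 in libraries 2 and 3.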
